A study of Drosophila melanogaster with 6 samples.

Results

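The genes described here are the 10 maternal genes of the Toll pathway that sets the dorsoventral axis of the embryo of the fruit fly Drosophila melanogaster: ndl, gd, snk, ea, spz, Tl, tub, pll, cact and dl. They were chosen by name, for their known place in the pathway, and found through the gene symbols of the array platform. All 10 were measured, by 13 of the 18769 probe sets tested, among 11981 genes named by the platform. Gene expression was profiled on 6 Affymetrix Drosophila Genome 2 arrays, 1 for each RNA sample of whole embryos aged 1 to 2 h. For the zld-glc group, 3 samples came from embryos whose mothers carried a germ-line clone mutant for zelda (zld); the series text calls them M- zld. The yw group held 3 samples of embryos of the yw stock, labelled wild type. Staining of part of each collection put 90% of embryos in nuclear cycles 8 to 13, as the series text states. The labels give neither the zld allele nor the genotype of the fathers of the zld-glc embryos, and each sample is a collection of many embryos. The comparison asked which transcripts differ when the maternal supply of Zelda, a zinc finger activator of early zygotic genes, is lacking.

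The pathway runs from the egg's outer layers to the nucleus. On the ventral side, serine proteases in the fluid around the embryo act in a cascade that cuts Spätzle, the ligand of the receptor Toll. Toll then signals through Tube and the kinase Pelle to release the transcription factor Dorsal from its inhibitor Cactus. Dorsal enters ventral and lateral nuclei in a gradient, turns on mesoderm and neurogenic ectoderm genes and keeps dorsal ectoderm genes off. The mother supplies the RNAs or proteins of this cascade to the egg. Zelda and Dorsal are both known to bind enhancers of many early dorsoventral genes.

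The signal of zld itself was 263.1, 195.7 and 214.9 on the zld-glc arrays, against 1023.2, 1062.4 and 966.8 on the yw arrays (log2 difference -2.11, adjusted p = 1.92e-04, limma). The background level used here was 18.1, the 95th percentile of the signals of 27 control probe sets for Bacillus genes. Unstable maternal RNAs were bright in both groups, with summed signals of the 5 measured (smg, bcd, osk, twe, png) of 6152 to 7559 on zld-glc arrays and 5539 to 7327 on yw arrays, and 0 of the 5 called (limma). On 2 yw arrays, genes of later tissues were high. The summed signal of 4 muscle markers (Mlc1, Mlc2, up, Tm2) was 24.7 to 36.5 on the zld-glc arrays, against 193.8, 269.8 and 55.5 on yw replicates 1, 2 and 3; that of 6 basement membrane genes was 165 to 200 on zld-glc arrays, against 315.9, 605.6 and 178.1 on these yw arrays. Another array, zld-glc replicate 2, stood apart in some control ratios used to judge RNA quality. Its signal ratio of the 3′ to the 5′ actin Act5C control probe set was 5.16. This ratio was 1.90 and 2.41 on the other zld-glc arrays and 1.87 to 2.47 on yw arrays. The same ratio for eIF-4a was 3.87, against 2.04 to 2.69 on the other arrays. For GAPDH it was 1.57, within the 1.33 to 1.70 of the other arrays. Without zld-glc replicate 2, 0 of the 10 Toll pathway genes were called, beside 56 lower and 46 higher among all probe sets (limma). Leaving out yw replicates 1 and 2 leaves only yw replicate 3, so no calls are counted. The log2 differences of the 10 genes then lay between -0.34 and 0.07. Labels do not settle whether all samples came from separate collections, so the p-values measure the spread between these samples, which may be partly technical.

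None of the 10 pathway genes was called lower or higher in zld-glc embryos. The test was limma on log2(signal + 16) over all probe sets, with a gene called at a Benjamini-Hochberg adjusted p under 0.05 and represented by its brightest probe set. At this threshold 1.64% of all probe sets were called (0.778% lower and 0.863% higher), so that a list of 10 with 0 calls is near the background. At an unadjusted p under 0.05, limma also gave 0 of the 10 by brightest probe set, where all probe sets gave 8.67% lower and 6.69% higher. The dimmer sets of dl and Tl, under background on all arrays, did pass this level, both lower. The methods' t-test was run here with equal variances on log2(signal + 16), with the same adjustment. It gave 1 of the 10 at an unadjusted p under 0.05, tub. The share of all probe sets at that level was not computed for this test. After adjustment it gave 0 of the 10, beside 0 lower and 2 higher of all 18769 probe sets. Differences, always zld-glc minus yw on the log2(signal + 16) scale, were below 0 for 6 genes and above 0 for 4. Their median was -0.05, as was the median over all probe sets. The signs of small differences moved with the scaling: gd, snk, spz and tub were above 0 with median centring, and snk, Tl and cact turned sign with quantile normalization. The median size of the 10 differences was 0.11, against 0.14 over all probe sets. Whole-embryo RNA was measured, so fewer nuclei or cells with a transcript and less of it in each cannot be told apart.

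The intervals show how large a difference these arrays leave possible. For 9 of the 10 genes, all but ndl, every array was above the background level. Their 95% intervals lay between -0.44 and 0.45 on the log2 scale, inside a 1.5-fold change either way. These intervals hold for the scaling as deposited and are not given for other scalings. With median centring the difference of pll was 0.34, against 0.18 with the deposited scaling. Over all probe sets, 61.2% had an interval inside 1.5-fold. All 10 genes had one inside 2-fold, as had 92.1% of all probe sets, though that of ndl depends on the 16 added before the log. These values do not show that the genes were equal in both groups: differences inside these intervals remain possible.

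**Figure D1:**
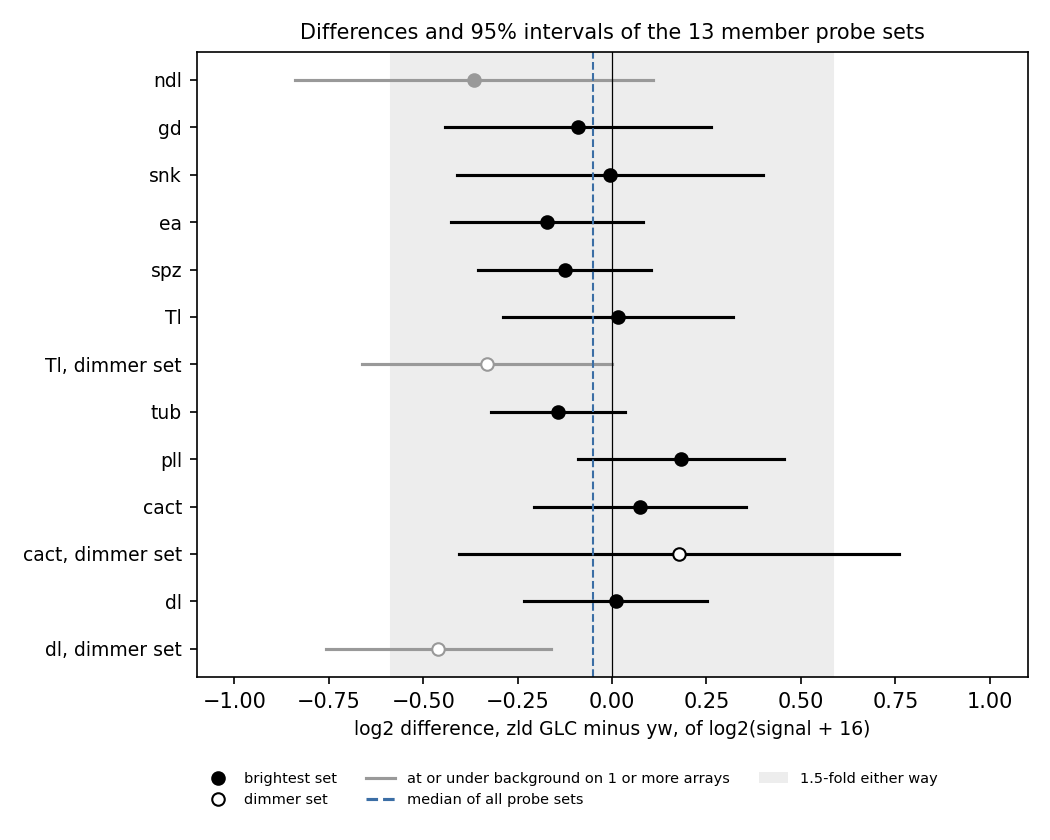
Log2 difference (zld GLC, the zld-glc group, minus yw) of each member probe set on the log2(signal + 16) scale, with its 95% interval from limma. Grey sets were at or under background on at least 1 array. The 9 genes measured above background on all arrays lay between -0.17 and 0.18 with their brightest probe set, close to the dashed median of all probe sets at -0.05.

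The protease cascade opens with ndl, which encodes Nudel, a mosaic serine protease that follicle cells supply to the egg's outer layers. Its signal was 3.5, 3.2 and 3.0 on the zld-glc arrays, against 19.7, 6.3 and 3.1 on the yw arrays. Only yw replicate 1, one of the arrays with high muscle markers, exceeded the background level, so no fold is given (adjusted p = 0.441, limma). The part of the later tissues in the ndl signal of replicate 1 was not tested.

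Gastrulation defective, encoded by gd, is the protease thought to act on Snake. Its signal was 74.9, 71.5 and 72.5 in zld-glc embryos, against 70.1, 71.2 and 96.9 in yw embryos. The groups overlapped, and a single array, yw replicate 3, was high. The log2 difference was -0.09 (95% interval -0.44 to 0.26, adjusted p = 0.814, limma), and it was 0.04 without that array. The signal of snk, which encodes the protease Snake that cuts Easter, was 73.9, 49.5 and 54.1 in zld-glc embryos, against 64.7, 54.3 and 57.5 in yw embryos. Here the zld-glc arrays spanned the yw range on both sides, and the difference was -0.00 (interval -0.41 to 0.40, adjusted p = 0.992).

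Easter (ea) is the last protease of the cascade and cuts Spätzle. Its transcript had signals of 248.0, 300.3 and 290.7 in zld-glc embryos, against 352.9, 304.6 and 293.4 in yw embryos. The ranges overlapped, with zld-glc replicate 1 low and yw replicate 1 high. Its log2 difference was -0.17 (SE 0.110, interval -0.43 to 0.08, adjusted p = 0.50, limma), and leaving out 1 array gave -0.22 to -0.09. The means were 280 ± 27.8 in zld-glc embryos and 317 ± 31.6 in yw embryos (SD, n = 3 each), so their gap was close to the spread between arrays. The serpin gene Spn27A, whose product inhibits Easter, had 267.8, 216.9 and 230.5 in zld-glc embryos, against 279.1, 267.7 and 273.2 in yw embryos. This inhibitor's arrays just met, 267.8 against 267.7, and the difference of -0.19 was not called (adjusted p = 0.409); Spn27A was picked out after its values were seen.

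**Figure D2:**
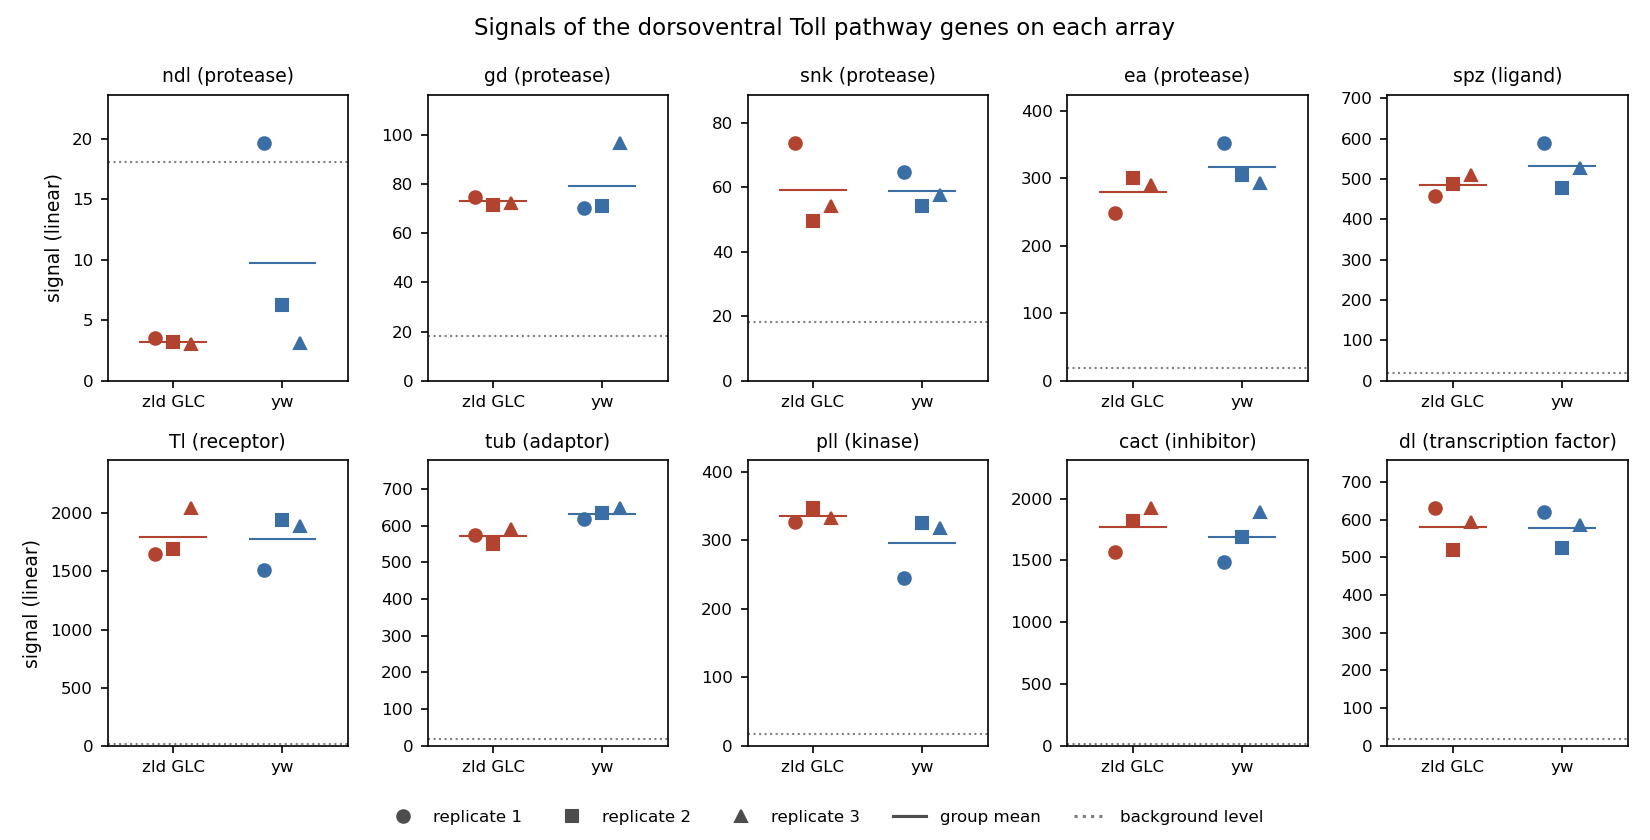
Signal of the brightest probe set of each gene on every array, on a linear axis from 0, with group means as lines and the background level dotted; the zld GLC (zld-glc) group is at the left of each panel. Groups separate for tub, 548.9 to 591.2 in zld-glc and 617.2 to 648.3 in yw embryos, and for pll, 327.6 to 347.6 in zld-glc and 244.9 to 326.2 in yw embryos. Groups separated for 21.8% of all probe sets, in either direction.

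Spätzle (spz), the ligand of Toll, had signals of 457.0, 488.6 and 508.7 in zld-glc embryos, against 590.0, 477.7 and 527.5 in yw embryos. The ranges overlapped, with yw replicate 1 highest. The log2 difference was -0.13 (interval -0.36 to 0.10, adjusted p = 0.589, limma), and 0.03 with median centring. The receptor gene Tl was bright on all arrays with its main probe set, at 1650.3, 1690.1 and 2045.0 in zld-glc embryos and at 1508.4, 1939.9 and 1887.0 in yw embryos. Neither group was consistently higher, and yw replicate 1 was the lowest of the 6. Its difference was 0.02 (interval -0.29 to 0.32, adjusted p = 0.967). The mean signal of Tl was 1795 ± 217 in zld-glc embryos and 1778 ± 235 in yw embryos (SD, n = 3 each).

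Downstream of the receptor, the adaptor and the kinase were the members whose groups did not overlap, and they lay in opposite directions. Groups overlapped for the other 8 of the 10 genes. Over all probe sets, 21.8% had groups that did not overlap, in either direction, so the share among the members is near the background. Tube, encoded by tub, is the adaptor that links the receptor complex to Pelle. Its signal was 574.9, 548.9 and 591.2 in zld-glc embryos, against 617.2, 633.3 and 648.3 in yw embryos. All zld-glc arrays were below all yw arrays, which held for 13.6% of all probe sets. The log2 difference of tub was -0.14 (SE 0.0774, interval -0.32 to 0.03, adjusted p = 0.421, limma), and 0.01 when each array was centred on its median, a scaling that moved the median difference of all probe sets by 0.157. The methods' t-test gave tub an unadjusted p of 0.0169 and an adjusted p of 0.274.

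Pelle (pll) is the kinase of the pathway, a relative of the mammalian IRAK kinases. Its signal was 327.6, 347.6 and 333.0 in zld-glc embryos, against 244.9, 326.2 and 318.6 in yw embryos. All zld-glc arrays were above all yw arrays, yet 327.6 and 326.2 nearly touch. Such a separation held for 8.11% of all probe sets and for 14.0% of those above background on all 6 arrays. The log2 difference of pll was 0.18 (SE 0.118, interval -0.09 to 0.45, adjusted p = 0.503, limma). It fell to 0.06 without yw replicate 1, whose 244.9 was far under the other yw arrays. The log2 ratio of pll to tub within an array does not change when an array is rescaled by a factor. It was -0.81, -0.66 and -0.83 on the zld-glc arrays, against -1.33, -0.96 and -1.02 on the yw arrays. All zld-glc arrays were above all yw arrays in this ratio, by a mean of 0.34 log2 units. With pll above and tub below on every zld-glc array, this separation was fixed in advance and adds no further result. The pair was picked after its values were seen, so no test is given.

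Cactus (cact), the inhibitor that holds Dorsal in the cytoplasm, had main probe set signals of 1571.5, 1820.9 and 1924.5 in zld-glc embryos, against 1483.2, 1685.3 and 1889.4 in yw embryos. The groups interleaved over nearly the same range. The log2 difference was 0.07 (interval -0.21 to 0.35, adjusted p = 0.807, limma). A dimmer cact probe set was at 60.7, 62.4 and 59.9 in zld-glc embryos, against 34.6, 84.9 and 45.8 in yw embryos. It was tight in the zld-glc group and wide in the yw group, where it gave the only member interval above background to pass 1.5-fold (difference 0.18, interval -0.40 to 0.76, adjusted p = 0.771).

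Dorsal (dl), the NF-kappaB family factor at the end of the pathway, had main probe set signals of 631.0, 519.1 and 593.5 in zld-glc embryos, against 620.9, 523.7 and 585.7 in yw embryos. The groups covered the same range, with means of 581 ± 57.0 in zld-glc embryos and 577 ± 49.2 in yw embryos (SD, n = 3 each). The log2 difference was 0.01 (SE 0.105, interval -0.23 to 0.25, adjusted p = 0.975, limma). The log2 ratio of dl to cact, which like that of pll to tub is free of array scaling, was -1.32, -1.81 and -1.70 on the zld-glc arrays, against -1.26, -1.69 and -1.69 on the yw arrays. The mean ratio differed by -0.06, less than the within-group SDs of 0.259 in zld-glc and 0.249 in yw embryos.

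The second probe sets of dl and Tl stayed at or under background on all arrays. That of dl was at 7.6, 6.9 and 9.2 in zld-glc embryos, against 17.3, 16.6 and 16.7 in yw embryos. That of Tl was at 9.4, 6.8 and 8.4 in zld-glc embryos, against 16.9, 10.4 and 16.4 in yw embryos. In both, all zld-glc arrays were below all yw arrays, but neither was called (adjusted p = 0.142 for dl and 0.324 for Tl, limma). No fold is given, since both groups lie within background. Among the 6686 probe sets under background on all 6 arrays, the groups separated in this direction for 10.4% and in the opposite one for 2.90%. These dim probe sets disagree with the bright ones of the same genes: averaging both took dl to -0.23 and Tl to -0.16.

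Members also varied between arrays of the same group, and not together. On yw replicate 1, Tl, pll and cact were 0.23, 0.25 and 0.18 log2 units under their yw means, while ea, spz, dl and snk were 0.11 to 0.15 above theirs. On zld-glc replicate 1, cact and ea were 0.17 and 0.16 under their group means, while snk was 0.27 and dl 0.12 above. The tightest members were tub, with a coefficient of variation of 3.73% in zld-glc and 2.46% in yw embryos, and, in zld-glc embryos, gd at 2.39% and pll at 3.08%. In yw embryos gd and pll varied more, at 19.1% and 15.1%.

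**Figure D3:**
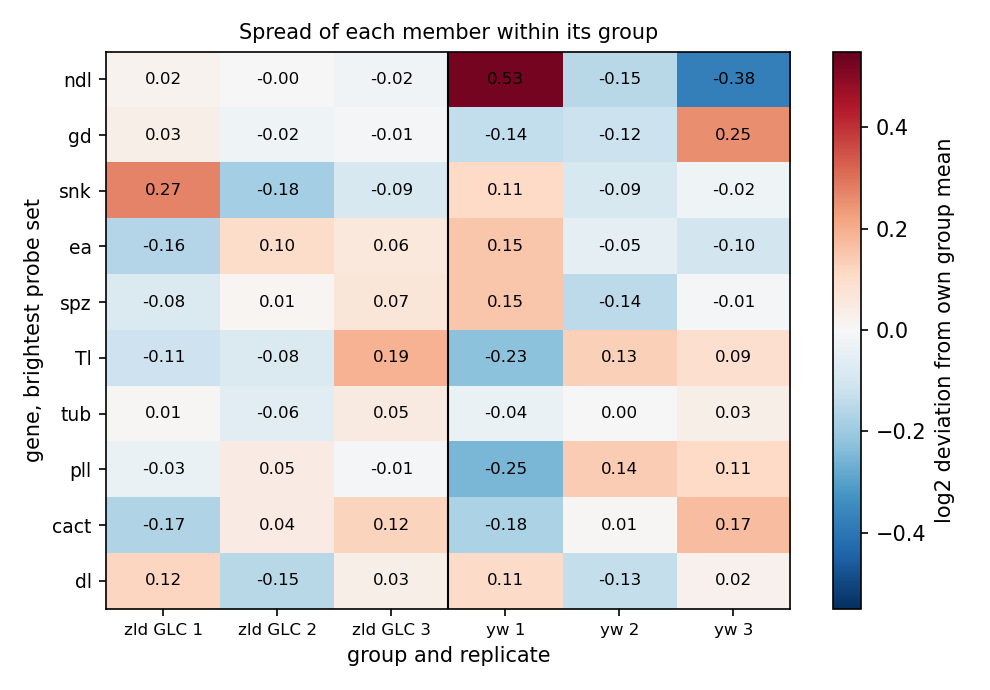
Deviation of each gene's log2(signal + 16) from the mean of its own group, for the 6 arrays in columns (zld GLC, the zld-glc group, left of yw) and the 10 genes in rows. The deviations of a column differ in sign between genes: on yw replicate 1, pll is at -0.25 and ndl at 0.53.

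The rest of the pathway was followed in lists of genes upstream, beside and downstream of these 10. Of 52 measured genes in the 7 lists that hold no Dorsal target, 0 were called in either direction by limma, beside 1.64% of all probe sets. The methods' t-test also called 0 of the 52, beside 0 lower and 2 higher of all 18769 probe sets. At an unadjusted p under 0.05, limma gave 9 lower and 0 higher, where all probe sets gave 8.67% lower and 6.69% higher. The methods' t-test gave 5 lower and 1 higher at that level, and its share over all probe sets was not computed. The median log2 difference of the 52 genes was -0.10, against -0.05 over all probe sets. The groups did not overlap for 11 genes below and 1 above, beside 13.6% and 8.11% of all probe sets.

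Among 11 genes of the ventral cue and egg axis, pip and wbl act in follicle cells to mark the ventral side of the egg. The sulfotransferase gene pip has 10 probe sets, of which only the brightest is given here. It had 24.6 and 24.5 on zld-glc replicates 2 and 3, with replicate 1 under background. In yw embryos pip had 6.5, 47.4 and 6.2. It was above background on 1 yw array, replicate 2, and was not called (adjusted p = 0.787, limma), while wbl was under background on all 6 arrays. Eggshell genes of the follicle cells were also low: the summed signal of the 9 measured was 138 to 145 in zld-glc and 149 to 160 in yw embryos, and 0 were called. The largest difference of the axis list was that of Egfr, the receptor that patterns the follicle cells, at 30.9, 21.8 and 27.5 in zld-glc embryos, against 52.1, 100.2 and 40.5 in yw embryos. The groups separated but the difference of -0.85 was not called (adjusted p = 0.204, limma; -1.06 to -0.54 when 1 array was left out), and its signal was highest on yw replicate 2, where muscle and basement membrane sums were highest too; their part in it was not tested. The list's median was -0.07.

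In the Spätzle family and extracellular inhibitors, 0 of 6 genes were called and the median was -0.15. Its largest difference was that of the ligand gene spz5, which was under background on all arrays. The Toll family receptors, 5 measured, had a median of -0.30, with 0 called. Toll-4, Tehao and Toll-7 were under background on all 6 arrays, and the median is the value of Tehao. The brightest receptor gene of the list, Tollo, had 318.0, 178.9 and 204.8 in zld-glc embryos, against 427.8, 376.2 and 297.7 in yw embryos. Its groups overlapped, and its difference of -0.64 (interval -1.12 to -0.16) was not called (adjusted p = 0.197, limma). The receptor gene 18w, known from later morphogenesis, had 89.8, 52.4 and 67.1 in zld-glc embryos, against 130.2, 240.3 and 66.3 in yw embryos. Only yw replicates 1 and 2 stood above the others, and without them its difference of -0.79 (adjusted p = 0.365, limma) turned to 0.04; leaving out 1 array gave -1.20 to -0.38. These are the arrays with high muscle and basement membrane sums, given above, whose part in it was not tested.

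The 11 adaptors and factors of Cactus turnover included Myd88, which joins Toll to Tube, and slmb, the ubiquitin ligase adaptor for Cactus. All 11 were above background on every array, 0 were called, and the median was -0.02. The largest difference was that of Traf4, a TRAF family adaptor, with 140.9, 117.1 and 145.5 in zld-glc embryos, against 79.2, 180.9 and 53.1 in yw embryos. Its yw arrays lay on both sides of the zld-glc arrays (difference 0.46, adjusted p = 0.557, limma). The value rested on single yw arrays: it was 0.13 without yw replicate 3 and 0.89 without yw replicate 2, and the mean of its probe sets gave 0.12. Among 8 NF-kappaB relatives and Dorsal partners 0 were called, with a median of -0.12. The largest difference there was that of gro, the Groucho corepressor that acts with Dorsal on silenced genes. Its signal was 215.4, 211.2 and 244.2 in zld-glc embryos, against 171.5, 218.0 and 124.4 in yw embryos. The groups overlapped through yw replicate 2, and the difference was 0.38 (adjusted p = 0.355), with 0.19 to 0.56 when 1 array was left out.

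The immune branch of Toll signalling, which works in the fat body after infection, was near background. Of 7 recognition factors and proteases, 0 were above background on all arrays and 0 were called, with a median of -0.06. The largest difference was that of the protease gene Hayan, which was above background on 0 of 3 zld-glc arrays and 1 of 3 yw arrays (adjusted p = 0.314, limma). Of 4 effector genes 1 was above background on all arrays and 0 were called, with a median of 0.02; Mtk, an antifungal peptide gene, was at 17.7, 18.6 and 23.6 in zld-glc embryos, against 34.5, 32.9 and 23.4 in yw embryos (difference -0.36, adjusted p = 0.424). Of 6 hemocyte and fat body markers 0 were called, with summed signals of 99.1 to 110.9 in zld-glc and 119 to 209 in yw embryos. Of these 6, only srp was above background on all arrays.

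The targets of Dorsal held calls. Of 12 measured targets 7 were lower and 0 higher, beside 0.778% and 0.863% of all probe sets; the lists were chosen with earlier results of these data known, so this is a description. Ventral targets had 2 of 4 lower: sna, the snail repressor, by -0.78, and T48, a gene of apical constriction, by -0.59 (adjusted p = 0.0296 and 0.0205, limma). Both calls ended when any 1 zld-glc array was left out. Without zld-glc replicates 1, 2 and 3 the differences were -0.81, -0.74 and -0.79 for sna and -0.63, -0.55 and -0.59 for T48. The call of sna also ended without yw replicate 1 or 2 (adjusted p = 0.0621 and 0.0805, limma). That of T48 ended without yw replicate 3 and with median centring (adjusted p = 0.0530 and 0.0678, limma). Twist (twi), turned on by the highest Dorsal levels, was at 136.9, 134.8 and 138.0 in zld-glc embryos, against 156.5, 175.8 and 111.6 in yw embryos, and was not called (adjusted p = 0.831). Lateral targets were thinly covered, with 2 of 7 measured, ths and pyr. The ligand gene pyr, under background on all arrays, was at 6.3, 10.5 and 13.7 in zld-glc embryos, against 3.2, 2.5 and 1.7 in yw embryos (adjusted p = 0.0945).

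Among 6 genes that Dorsal keeps off on the ventral side, 5 were lower: tsg, zen2, tld, zen and dpp, while tup, under background on all arrays, was not called. The log2 differences of tsg, zen2 and tld were -3.13, -2.35 and -1.78; tsg, tld and dpp were under background on all zld-glc arrays and zen2 on 2 of 3, so these values depend on the number added before the log. Adding 1 gave -5.73, -3.26 and -3.60 for tsg, zen2 and tld, and adding 64 gave -1.64, -1.37 and -0.77, with all 3 called in each case. The call of tld ended when any 1 zld-glc array was left out (adjusted p = 0.073 to 0.108, limma), and that of zen2 without zld-glc replicate 3 (0.0659). The homeobox gene zen had 78.7, 59.7 and 55.1 in zld-glc embryos, against 197.9, 303.7 and 203.0 in yw embryos. The groups were far apart, at a log2 difference of -1.63 (interval -2.06 to -1.19, adjusted p = 0.00625, limma). The list median was -1.70, and the call of dpp, named after its values were seen, was close to the threshold (adjusted p = 0.0483). Leaving out yw replicates 1 and 2 leaves only yw replicate 3, so no calls are counted. The log2 differences were then -3.15 for tsg, -2.33 for zen2, -1.38 for tld, -1.46 for zen, -0.51 for sna and -0.57 for T48.

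**Figure D4:**
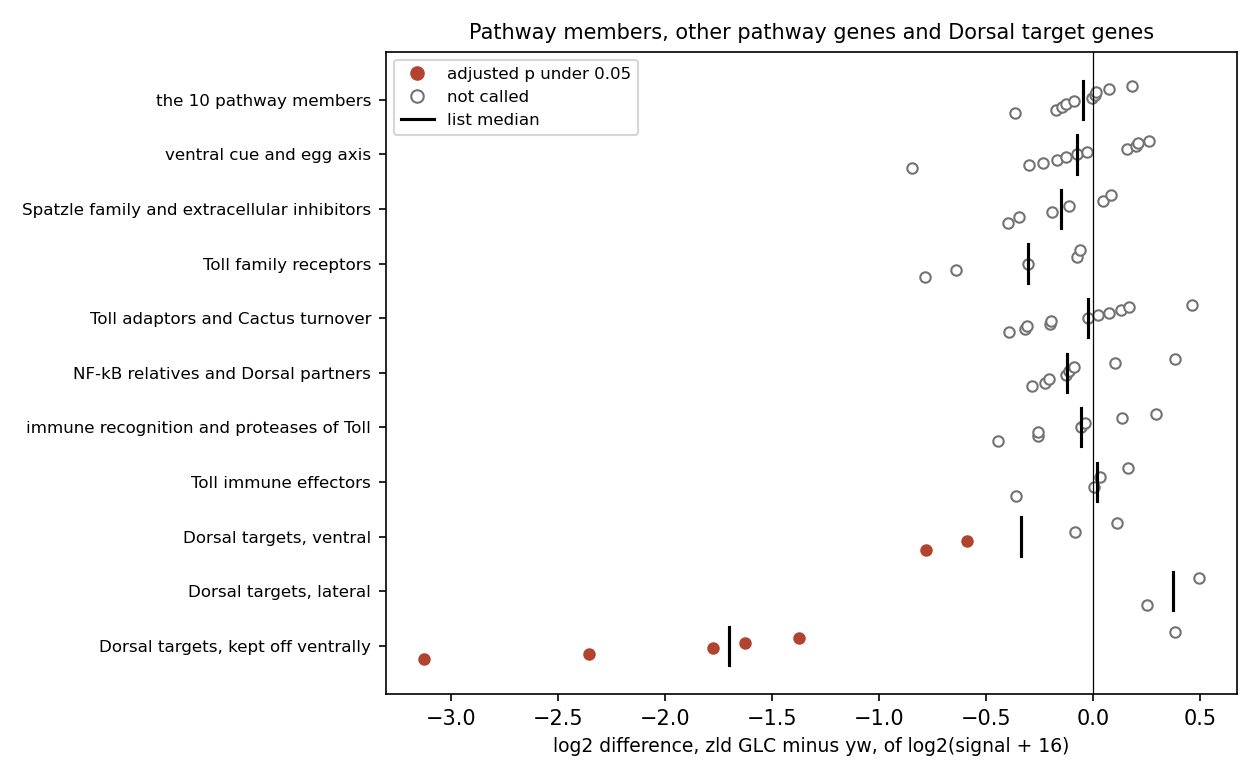
Log2 difference (zld GLC, the zld-glc group, minus yw) of every measured gene of the pathway lists, with filled points for an adjusted p under 0.05 (limma) and a bar for each list's median. Filled points occur in the lists of Dorsal targets, with 7 of 12 genes lower, and in none of the other lists or the 10 members.

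The genes whose profile over the 6 arrays was most like that of dl were CG11110, CG9855, Pgant6, tun and hb, in this order, among 7167 named genes with signals above the median. Likeness was the mean absolute difference between log2 signals centred on each gene's own mean, and ran from 0.0201 for CG11110 to 0.0307 for hb, against a median of 0.171. The list depends on the scaling: 3 of the 5 stayed with quantile normalization and 4 with 1 or 64 added before the log. Median centring shifts all genes of an array alike, so it cannot change the list. The gap gene hb, whose RNA is also maternal, had 1218.0, 1064.4 and 1187.1 in zld-glc embryos, against 1249.8, 1108.6 and 1160.2 in yw embryos. Like dl, it was lowest on replicate 2 in both groups. Of the other pathway members snk came nearest to dl, at rank 210, and cact was the furthest of those ranked, at 4187; ndl was too dim to be ranked.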

How the data were processed

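The authors deposited 1 intensity signal per probe set and array on a linear scale, acquired, normalized and processed with the Affymetrix GeneChip Operating Software (GCOS), per the series' design text; its version and scaling target are not given in the sources used here. Trimmed means (2% at each end) were 150.002 to 150.003 on all arrays. No detection calls were used here. Of 18952 probe sets, 183 controls were left out; of 18769 tested, 13646 had 1 gene symbol, 402 several and 4721 were unnamed here. Symbols came from the platform annotation, updated through the RefSeq table of Release 6; no coordinates or sequences were used. A gene's brightest probe set stood for it.

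The test was limma 3.58.1 (R 4.3.3; lmFit, eBayes with trend) on log2(signal + 16), group as the only term, Benjamini-Hochberg adjustment over all probe sets. Tables and figures used Python 3.11.15, pandas 2.3.3 and matplotlib 3.10.9. On simulated arrays of 18769 probe sets, the limma test found 15.2%, 61.8% and 90.9% of log2 changes of 0.5, 1 and 2. Unchanged sets made up 8.20% of the calls. The 200 changed sets were drawn from those at or above the median signal, with noise independent between probe sets, so dim sets are not covered. The number of arrays limits the precision.

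Members, lists (123 entries, 94 measured), alternatives and naming rule were chosen with earlier results of these data known. Genes named were all members, zld, up to 4 called genes of each list or else its largest difference, and the 5 most like dl. Others (Spn27A, twi, dpp, tup, pip, wbl, Myd88, slmb, ths, Tollo, Toll-4, Tehao, Toll-7 and markers) were chosen after their values were seen. Same-numbered arrays of the 2 groups did not deviate together (r = 0.175, -0.0111 and -0.0315 over the brighter probe sets), so numbers were not taken as pairs.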

Additional observations from a re-analysis of the deposited data

How the results depend on the processing

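By its brightest probe set or the mean of its sets, none of the 10 members was called under any alternative that kept several arrays in each group. The lowest adjusted p was then 0.162, for pll (limma with median centring). The dimmer dl set, under background on all arrays, had 0.142 by limma and 0.0875 by the methods' t-test. The sign of small differences moved. Quantile normalization gave 0.095 for snk, -0.090 for Tl and -0.020 for cact. Median centring gave 0.068 for gd, 0.15 for snk, 0.032 for spz and 0.014 for tub. Without yw replicates 1 and 2 the values were 0.00995 for ndl, 0.019 for snk, -0.078 for Tl, -0.10 for cact, -0.015 for dl and 0.036 for 18w. The mean of all probe sets gave -0.16 for Tl and -0.23 for dl. Leaving out 1 array gave ranges of -0.16 to 0.038 for gd, -0.14 to 0.088 for snk, -0.10 to 0.082 for Tl, -0.015 to 0.16 for cact and -0.056 to 0.087 for dl. The signs of ea and pll stayed the same under every alternative run.

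The test called 146 probe sets lower and 162 higher. With dim probe sets left out there were 264 and 327 (fewer were tested), with median centring 552 higher and 127 lower, a different split, with the methods' t-test 0 and 2, and without yw replicates 1 and 2 together 43 and 51. Leaving out 1 array gave 45 to 213 lower and 35 to 227 higher (fewest without zld-glc replicate 3). The 7 pathway list genes called lower, all Dorsal targets, became 0 with the methods' t-test and 2 to 6 when 1 array was left out. Median centring added 1 higher, pyr. With the replicate number as a block, 76 probe sets were lower and 75 higher, and 4 list genes were lower. The cause of these moves was not tested. The promoter motif comparison and its alternative were not run, since no promoter sequences were used here. With 3 arrays per group, 15.2% of simulated log2 changes of 0.5 were found, among probe sets at or above the median signal. The simulation does not cover ndl, most immune genes and the dimmer sets of dl and Tl, which are limited by background.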

Other observations

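Deviations from the group mean on same-numbered arrays differed between members. Those of the main dl probe set on replicates 1, 2 and 3 were 0.12, -0.15 and 0.03 log2 units in zld-glc embryos and 0.11, -0.13 and 0.02 in yw embryos. For cact they were -0.17, 0.04 and 0.12 in zld-glc embryos and -0.18, 0.01 and 0.17 in yw embryos, also with the same signs. For ea they were -0.16, 0.10 and 0.06 in zld-glc embryos and 0.15, -0.05 and -0.10 in yw embryos, with opposite signs. These genes were picked after their values were seen. Over the probe sets with signals above the median, the deviations of same-numbered arrays correlated at 0.175, -0.0111 and -0.0315, a description across probe sets, which are not independent.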
